A study of Mus musculus with 6 samples.

Results

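The 39 genes described here encode the machinery that breaks down fatty acids in the liver, with the ketone body enzyme Bdh1 and several targets of the nuclear receptor PPAR-alpha. They were chosen by symbol from a list of mitochondrial and peroxisomal beta-oxidation, omega-oxidation, ketogenesis and PPAR-alpha target genes, and all 39 were found among the 34745 genes of the table. The libraries are liver RNA from mice on an MCD diet for 6 weeks, a name commonly used for feed lacking methionine and choline that brings on steatohepatitis. There were 3 libraries labelled Sox9HKO (replicates 9, 10 and 12) and 3 labelled Sox9f/f (replicates 5, 6 and 8), the floxed Sox9 genotype without a label of loss. The sample titles and count columns name the Sox9HKO group HKO and the Sox9f/f group WT. All 6 shared the diet, so what the diet itself did to these genes was not measured. The sources used here do not state the cells in which Sox9 was to be lost, the driver of recombination, or the age and sex of the mice. They also do not state whether each library is a separate mouse.

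Fatty acids are first joined to coenzyme A. Long chains then enter mitochondria on carnitine through Cpt1a, the carrier Slc25a20 and Cpt2, and each turn of the spiral (dehydrogenase, hydratase, hydroxyacyl dehydrogenase, thiolase) removes an acetyl unit that the liver can turn into ketone bodies. Very long and branched chains are shortened in peroxisomes by a parallel set of enzymes, and cytochromes of the Cyp4a family in the endoplasmic reticulum oxidise the far end of the chain. PPAR-alpha, the receptor encoded by Ppara, binds fatty acids and drives many genes of all 3 routes in the fasted or fat-laden liver.

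Total gene counts lay between 22826962 and 27286864 per library. Values are given as CPM, read counts scaled to a common library total with TMM factors, for comparisons between libraries, and as FPKM, which also divides by gene length, for comparisons between genes. Sox9 itself stood at 15.3, 18.1 and 22.7 CPM in the libraries labelled Sox9HKO, against 5.80, 5.31 and 5.80 CPM in those labelled Sox9f/f. The targeted gene thus went against a label of loss in whole liver RNA, and each direction below is between labels only. Of 10 hepatocyte markers 8 had a negative log2 fold change, from -0.61 (Serpina1c) to -0.02 (Cps1). Tdo2 (0.68) and Apob (0.38) were positive. The summed level of the 10 was 85285 to 92951 CPM in the libraries labelled Sox9HKO and 102060 to 109332 CPM in those labelled Sox9f/f. Most of that sum was Alb alone, which averaged 60349 CPM in Sox9HKO and 76675 CPM in Sox9f/f libraries. All 9 ductular markers tested were positive (summed level 142 to 258 CPM in Sox9HKO and 63.5 to 95.5 CPM in Sox9f/f libraries). Spp1 alone made up most of that sum, averaging 127 CPM in Sox9HKO and 46.7 CPM in Sox9f/f libraries. Also positive were all 10 stellate and matrix markers (615 to 805 CPM in Sox9HKO and 403 to 514 CPM in Sox9f/f libraries). The same held for all 10 macrophage markers (964 to 1692 CPM in Sox9HKO and 760 to 1191 CPM in Sox9f/f libraries). By edgeR, 4 ductular (44.4%), 7 stellate and matrix (70%) and 0 macrophage markers were higher at an unadjusted p under 0.05. Of the hepatocyte markers 1 was higher (10%) and 3 were lower (30%). Of all genes 9.74% were higher and 10.1% lower. The adipocyte markers Adipoq and Lep had 0 counts in every library, and the 5 adipocyte markers summed to at most 0.112 CPM. In whole liver RNA, fewer cells of a type and less RNA per cell cannot be told apart, and the part these marker shifts have in the results below was not tested.

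Across the 39 genes 31 had a positive log2 fold change (Sox9HKO over Sox9f/f) and 8 a negative one, with a median of 0.26 beside 0.00 over all 14137 genes tested, of which 50.5% were positive. All 39 passed the filter on low counts. With edgeR's quasi-likelihood test 0 of the 39 were called at an adjusted p under 0.05, where the background was 0.00% of all genes. An unadjusted p under 0.05 was reached by 12, or 30.8%, beside a background of 19.8%, and 11 of the 12 were higher (28.2% beside 9.74%). DESeq2 called 3 of the 39, Ppara, Crot and Pdk4, or 7.69% beside a background of 4.28%. All 3 were higher, which 2.31% of all genes were by DESeq2, while 1.97% were lower. The groups did not overlap for 10 of the 39, or 25.6%, which lay near the background of 26.5%. All 10 were higher in the libraries labelled Sox9HKO, a direction that 12.2% of all genes showed. The count at an unadjusted p under 0.05 depended on which libraries were kept. It was 20 without Sox9HKO replicate 9 and 6 without Sox9HKO replicate 10. It was 8 without Sox9HKO replicate 12, 7 without Sox9f/f replicate 5 and 5 without Sox9f/f replicate 8. Without Sox9f/f replicate 6 it lay within the range of 5 to 20. The share of all genes at this threshold in these fits is not given. A shift of the members can therefore not be told from a shift of the whole table.

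**Figure D1:**
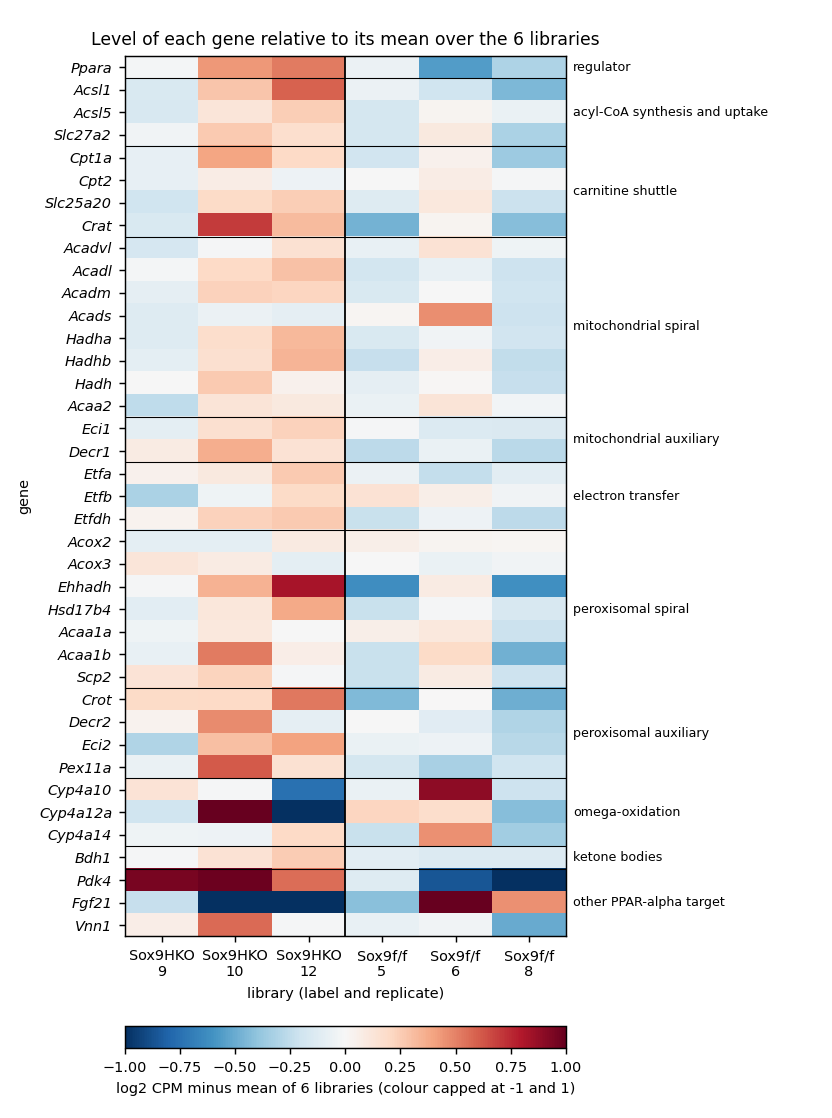
Level of each of the 39 genes in each library, as log2 CPM minus the gene's mean over the 6 libraries, in rows grouped by role and columns by label and replicate, with the colour capped at -1 and 1. Sox9HKO replicate 10 is the highest of its group for 17 genes and replicate 12 for 19, while Sox9HKO replicate 9 is the lowest of its group for 30 of the 39 genes and Sox9f/f replicate 6 the highest of its group for 27.

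Within each label the members tended to rank the libraries alike. Sox9HKO replicate 9 was the lowest of its group for 30 of the 39 genes, and Sox9f/f replicate 8 for 27. Sox9f/f replicate 6 was the highest of its group for 27 genes, and Sox9f/f replicate 8 for 0. The heat map of levels by library shows this order row by row.

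Ppara, the receptor itself, stood at 122, 166 and 176 CPM in the libraries labelled Sox9HKO, against 118, 83.4 and 99.0 CPM in those labelled Sox9f/f. Every library labelled Sox9HKO lay above every one labelled Sox9f/f, with replicates 9 and 5 nearly level. The log2 fold change was 0.63 ± 0.18 (SE), or 1.54-fold, with an edgeR adjusted p of 0.156 and a DESeq2 adjusted p of 0.0466 (range over all alternatives 0.0466 to 0.364). Within the Sox9f/f group Ppara was lowest in replicate 6, the library in which most of the other members were highest. In GRCm38 the gene Ppara (ENSMUSG00000022383) spans bases 85734983 to 85802819 of chromosome 15, plus strand.

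Among its partners and coregulators, 7 of 12 genes tested were positive, the median was 0.04, and edgeR called 0 at an adjusted p under 0.05. DESeq2 called 1 higher, Med1, and 1 lower, Lpin1 (16.7% of the 12, beside 4.28% of all genes). Med1 and Pparg were higher (16.7%, beside 9.74% of all genes) and Lpin1 lower (8.33%, beside 10.1%) with an unadjusted p below that threshold. Rxra, the partner with which PPAR-alpha binds DNA, was picked out after its values were seen and averaged 698 ± 61.5 CPM in the libraries labelled Sox9HKO and 714 ± 46.8 CPM in those labelled Sox9f/f (SD, n = 3 each). Med1, a mediator subunit that nuclear receptors recruit, had a log2 fold change of 0.69 ± 0.16, and Pparg, the related receptor of fat storage, 0.56 ± 0.24. Lpin1, a phosphatidate phosphatase that also acts as a coactivator of PPAR-alpha, went the other way at -1.32 ± 0.26. Its edgeR adjusted p was 0.139 and its DESeq2 adjusted p 2.98e-04, beside a DESeq2 adjusted p of 0.0131 for Med1.

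Pdk4 and Fgf21, both PPAR-alpha targets that take no part in the spiral, had the largest fold changes of the 39 in each direction. Pdk4, a mitochondrial kinase that restrains pyruvate dehydrogenase and so spares glucose, stood at 160, 163 and 122 CPM in the libraries labelled Sox9HKO, against 75.8, 45.6 and 29.2 CPM in those labelled Sox9f/f. The groups were well apart, the lowest library labelled Sox9HKO exceeding the highest labelled Sox9f/f. The log2 fold change was 1.56 ± 0.32, with an edgeR adjusted p of 0.139 and a DESeq2 adjusted p of 1.71e-04 (range over all alternatives 1.71e-04 to 0.353). Fgf21, a hormone that the liver secretes in fasting and that stress signalling also induces, stood at 63.2, 35.5 and 28.1 CPM in the libraries labelled Sox9HKO, against 55.8, 471 and 102 CPM in those labelled Sox9f/f. A single library, Sox9f/f replicate 6, held most of that difference, and the groups overlapped. The log2 fold change of Fgf21 was -2.31 ± 0.74 (edgeR adjusted p of 0.173) and -0.89 without Sox9f/f replicate 6. Vnn1, a pantetheinase that responds to PPAR-alpha, stood at 87.1, 123 and 82.3 CPM in the libraries labelled Sox9HKO, against 78.9, 81.0 and 58.7 CPM in those labelled Sox9f/f. The lowest library labelled Sox9HKO lay just above the highest labelled Sox9f/f (log2 fold change of 0.42 ± 0.19).

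The promoters of the genes at either end of this range are shown with those of the peroxisomal genes of largest fold change and of the carnitine and medium-chain enzymes that hold the hexamer of a receptor site, so that the letters ahead of each start can be read beside the values. RefSeq (GRCm38.p6) gave windows for 31 of the 39 genes, and the 250 bases before each start were searched on both strands. The direct repeat that PPAR-alpha binds with its partner, 2 copies of AGGTCA with 1 base between them, was in 0 of the 31 genes and in 0.0335% of all 32851 windows. A looser form with AGGNCA for each copy was in 0 of the 31 and in 0.338% of all windows. A single AGGTCA, which the strict repeat contains, was in 5 of 31 genes (16.1%), Acadm, Acadvl, Cpt1a, Scp2 and Slc27a2, beside 14.0% of all windows. CCAAT was in 14 of 31 (45.2%) beside 33.8%, and TATAAA in Fgf21 alone of the 31 (3.23%) beside 12.4%. Capitals mark CCAAT or its complement in Pdk4, Crot and Ehhadh, TATAAA in Fgf21, and AGGTCA or its complement in Cpt1a and Acadm. Each is read in the direction of its gene, and the absence of a match says only that those letters are not in this window.
Pdk4, chr6:5496279-5496528 (minus strand): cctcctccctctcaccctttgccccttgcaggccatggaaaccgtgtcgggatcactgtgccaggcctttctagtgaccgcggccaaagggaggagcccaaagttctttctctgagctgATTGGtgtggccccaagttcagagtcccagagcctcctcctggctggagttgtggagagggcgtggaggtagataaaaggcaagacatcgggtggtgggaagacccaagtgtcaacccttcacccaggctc
Fgf21, chr7:45615491-45615740 (minus strand): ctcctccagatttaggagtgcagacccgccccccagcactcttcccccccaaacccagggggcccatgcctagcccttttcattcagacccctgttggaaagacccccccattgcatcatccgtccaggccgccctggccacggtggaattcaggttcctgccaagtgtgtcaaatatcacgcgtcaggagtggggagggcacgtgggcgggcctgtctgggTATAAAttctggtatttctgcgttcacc
Crot, chr5:8997147-8997396 (minus strand): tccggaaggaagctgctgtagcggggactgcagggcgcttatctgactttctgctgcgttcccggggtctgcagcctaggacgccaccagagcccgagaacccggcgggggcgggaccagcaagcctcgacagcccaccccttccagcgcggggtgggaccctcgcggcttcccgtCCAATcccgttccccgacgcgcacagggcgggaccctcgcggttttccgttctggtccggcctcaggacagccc
Ehhadh, chr16:21787835-21788084 (minus strand): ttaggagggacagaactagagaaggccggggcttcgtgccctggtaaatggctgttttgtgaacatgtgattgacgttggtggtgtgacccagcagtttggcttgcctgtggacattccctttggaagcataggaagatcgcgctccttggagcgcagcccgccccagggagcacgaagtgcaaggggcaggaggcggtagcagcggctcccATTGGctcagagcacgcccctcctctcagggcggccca
Cpt1a, chr19:3323051-3323300 (plus strand): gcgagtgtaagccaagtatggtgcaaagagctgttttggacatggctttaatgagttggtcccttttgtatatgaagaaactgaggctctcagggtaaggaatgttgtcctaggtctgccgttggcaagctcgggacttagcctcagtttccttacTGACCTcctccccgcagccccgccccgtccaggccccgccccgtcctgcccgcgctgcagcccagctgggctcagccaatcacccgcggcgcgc
Acadm, chr3:153944644-153944893 (minus strand): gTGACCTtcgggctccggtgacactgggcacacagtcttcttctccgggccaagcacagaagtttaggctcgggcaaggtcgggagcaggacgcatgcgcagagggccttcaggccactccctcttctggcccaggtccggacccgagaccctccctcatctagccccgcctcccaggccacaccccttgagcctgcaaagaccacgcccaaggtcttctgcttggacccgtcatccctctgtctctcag

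Of the 3 genes that charge or import fatty acids, all had positive log2 fold changes. Acsl1, the main long-chain acyl-CoA synthetase of liver, stood at 311, 420 and 522 CPM in the libraries labelled Sox9HKO, against 332, 301 and 253 CPM in those labelled Sox9f/f. Sox9HKO replicate 9 lay inside the Sox9f/f range, and the log2 fold change was 0.50 ± 0.20 (edgeR adjusted p of 0.225). Slc27a2, a transporter and very-long-chain acyl-CoA synthetase, was the most abundant of the 3 per length. It stood at 846, 1040 and 978 CPM in the libraries labelled Sox9HKO, against 769, 930 and 700 CPM in those labelled Sox9f/f, with overlap (0.26 ± 0.15). Acsl5, another acyl-CoA synthetase, had 0.15 ± 0.13.

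The 17 mitochondrial members centred on a log2 fold change of 0.24 (median), with 12 positive, 5 negative and 0 called by edgeR. Unadjusted p values under 0.05 came from 5 genes, namely Crat, Acadl, Decr1, Etfa and Etfdh, all higher in the libraries labelled Sox9HKO. That was 29.4% of the 17, where 9.74% of all genes were higher and 19.8% reached this threshold in either direction. At the gate, Cpt1a, the step that malonyl-CoA restrains, stood at 829, 1154 and 1007 CPM in the libraries labelled Sox9HKO, against 769, 904 and 682 CPM in those labelled Sox9f/f. Sox9HKO replicate 9 lay below Sox9f/f replicate 6, so the groups overlapped, and the log2 fold change was 0.34 ± 0.17 (edgeR adjusted p of 0.292). Slc25a20, the carnitine carrier, had 0.17 ± 0.15, and Cpt2, on the inner membrane, averaged 161 ± 9.60 CPM in the libraries labelled Sox9HKO and 165 ± 5.38 CPM in those labelled Sox9f/f (SD, n = 3 each). Crat, which moves short acyl groups between coenzyme A and carnitine and is also found in peroxisomes, stood at 113, 205 and 156 CPM in the libraries labelled Sox9HKO, against 90.7, 128 and 93.7 CPM in those labelled Sox9f/f. The groups overlapped through Sox9HKO replicate 9 (0.60 ± 0.23, edgeR adjusted p of 0.209). Crat overlaps Dolpp1 and Gm16323, both on the opposite strand, so reads may have been shared in counting. It is 1 of 15 members that overlap another gene. Of these, Etfb, Etfdh, Hsd17b4 and Scp2 have an overlap on the same strand.

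In the matrix spiral the 4 acyl-CoA dehydrogenases, which differ in the chain length they prefer, did not share a direction. Acadl, for long chains, stood at 282, 327 and 349 CPM in the libraries labelled Sox9HKO, against 250, 270 and 247 CPM in those labelled Sox9f/f. Its groups were apart, with a log2 fold change of 0.32 ± 0.12 (edgeR adjusted p of 0.209). Acadm, for medium chains, had 0.24 ± 0.13, Acadvl, for very long chains, -0.01 ± 0.13, and Acads, for short chains, -0.21 ± 0.17. The value of Acads rested on Sox9f/f replicate 6 at 312 CPM, the other 5 libraries lying between 196 and 230 CPM, and it was 0.01 without that library.

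Hadha and Hadhb encode the alpha and beta subunits of the trifunctional protein, which carries out the later steps on long chains, and sit head to head on chromosome 5 with 85 bases between their annotated starts. Those bases, shown because both genes are read outward from them, are given on the plus strand from Hadha to Hadhb.
Hadha-Hadhb, chr5:30155163-30155247 (plus strand): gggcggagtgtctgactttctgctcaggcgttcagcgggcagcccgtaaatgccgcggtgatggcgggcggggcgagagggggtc
Hadha had a log2 fold change of 0.26 ± 0.14 and Hadhb 0.27 ± 0.15, nearly the same value. Their levels differed, at 55.0 FPKM for Hadha and 5.45 FPKM for Hadhb as means of the libraries labelled Sox9HKO, against 42.6 FPKM and 4.18 FPKM in those labelled Sox9f/f. The gene lengths behind these FPKM values were 10692 bases for Hadha and 8793 bases for Hadhb. Hadh, the short-chain hydroxyacyl dehydrogenase, had 0.20 ± 0.13. Acaa2, the matrix thiolase that ends the spiral, was the most abundant mitochondrial member per length. Acaa2 stood at 692, 901 and 882 CPM in the libraries labelled Sox9HKO, against 787, 904 and 808 CPM in those labelled Sox9f/f, fully overlapping (-0.01 ± 0.14).

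The auxiliary enzymes that let unsaturated chains through the spiral were both positive. Decr1, the mitochondrial dienoyl-CoA reductase, stood at 210, 255 and 219 CPM in the libraries labelled Sox9HKO, against 165, 189 and 164 CPM in those labelled Sox9f/f. Its groups were apart, with 0.40 ± 0.12, or 1.32-fold (edgeR adjusted p of 0.167). Eci1, the mitochondrial enoyl-CoA isomerase and the more abundant of the pair per length, stood at 103, 123 and 130 CPM in the libraries labelled Sox9HKO, against 110, 101 and 99.8 CPM in those labelled Sox9f/f. The groups of Eci1 overlapped (0.20 ± 0.12).

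Electrons from the dehydrogenases pass to the flavoprotein of Etfa and Etfb and on to Etfdh in the inner membrane. Etfa, the alpha subunit, stood at 208, 217 and 242 CPM in the libraries labelled Sox9HKO, against 194, 172 and 188 CPM in those labelled Sox9f/f. Etfdh, the oxidoreductase that hands the electrons to ubiquinone, stood at 250, 286 and 293 CPM in the libraries labelled Sox9HKO, against 210, 236 and 204 CPM in those labelled Sox9f/f. For both genes the groups were apart. The log2 fold change was 0.27 ± 0.11 for Etfa (edgeR adjusted p of 0.239) and 0.35 ± 0.12 for Etfdh (edgeR adjusted p of 0.184). Etfb, the beta subunit that pairs with Etfa, stood at 180, 218 and 257 CPM in the libraries labelled Sox9HKO, against 248, 234 and 219 CPM in those labelled Sox9f/f, an overlap with a log2 fold change of -0.10 ± 0.15.

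The 11 peroxisomal members centred on a log2 fold change of 0.29 (median), with 10 positive, 1 negative and 0 called by edgeR. An unadjusted p under 0.05 was reached by 3, Ehhadh, Crot and Pex11a, all higher in the libraries labelled Sox9HKO. This made 27.3% of the 11, where 9.74% of all genes were higher and 19.8% reached this threshold in either direction. Crot, which hands shortened acyl chains to carnitine for export to mitochondria, stood at 563, 566 and 712 CPM in the libraries labelled Sox9HKO, against 363, 493 and 351 CPM in those labelled Sox9f/f. Its groups were apart, with 0.61 ± 0.17, or 1.53-fold. The edgeR adjusted p was 0.154 and the DESeq2 adjusted p was 0.0412 (range over all alternatives 0.0412 to 0.375). Ehhadh, the bifunctional hydratase and dehydrogenase that PPAR-alpha agonists induce in rodents, stood at 611, 786 and 1091 CPM in the libraries labelled Sox9HKO, against 401, 654 and 404 CPM in those labelled Sox9f/f. Sox9HKO replicate 9 lay below Sox9f/f replicate 6, so its groups overlapped, with 0.77 ± 0.26, or 1.71-fold (edgeR adjusted p of 0.186). Pex11a, a membrane protein of peroxisome division and a PPAR-alpha target, stood at 187, 300 and 218 CPM in the libraries labelled Sox9HKO, against 174, 157 and 171 CPM in those labelled Sox9f/f. Its groups were apart (0.49 ± 0.18, edgeR adjusted p of 0.196).

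The rest of the peroxisomal spiral spread around smaller values. Hsd17b4, the other bifunctional enzyme, which also handles branched chains, had 0.27 ± 0.15, and Scp2, whose longer product is a thiolase, 0.23 ± 0.14. Acox2, the oxidase for branched chains and bile acid side chains, had -0.07 ± 0.11, and Acox3, an oxidase of low level in liver at 3.04 FPKM in the libraries labelled Sox9HKO and 2.68 FPKM in those labelled Sox9f/f, had 0.07 ± 0.11. The auxiliary enzymes Decr2 and Eci2, a dienoyl-CoA reductase and an enoyl-CoA isomerase that also occurs in mitochondria, each had 0.29, with SE of 0.17 and 0.19. Acaa1a and Acaa1b are near-identical thiolase genes on chromosome 9, so the counting may have shared or split their reads. Acaa1b, the most abundant per length of all 11, stood at 801, 1213 and 884 CPM in the libraries labelled Sox9HKO, against 725, 965 and 607 CPM in those labelled Sox9f/f (0.34 ± 0.22). Acaa1a stood at 238, 263 and 243 CPM in the libraries labelled Sox9HKO, against 254, 263 and 210 CPM in those labelled Sox9f/f (0.03 ± 0.12). Both pairs of groups overlapped.

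**Figure D2:**
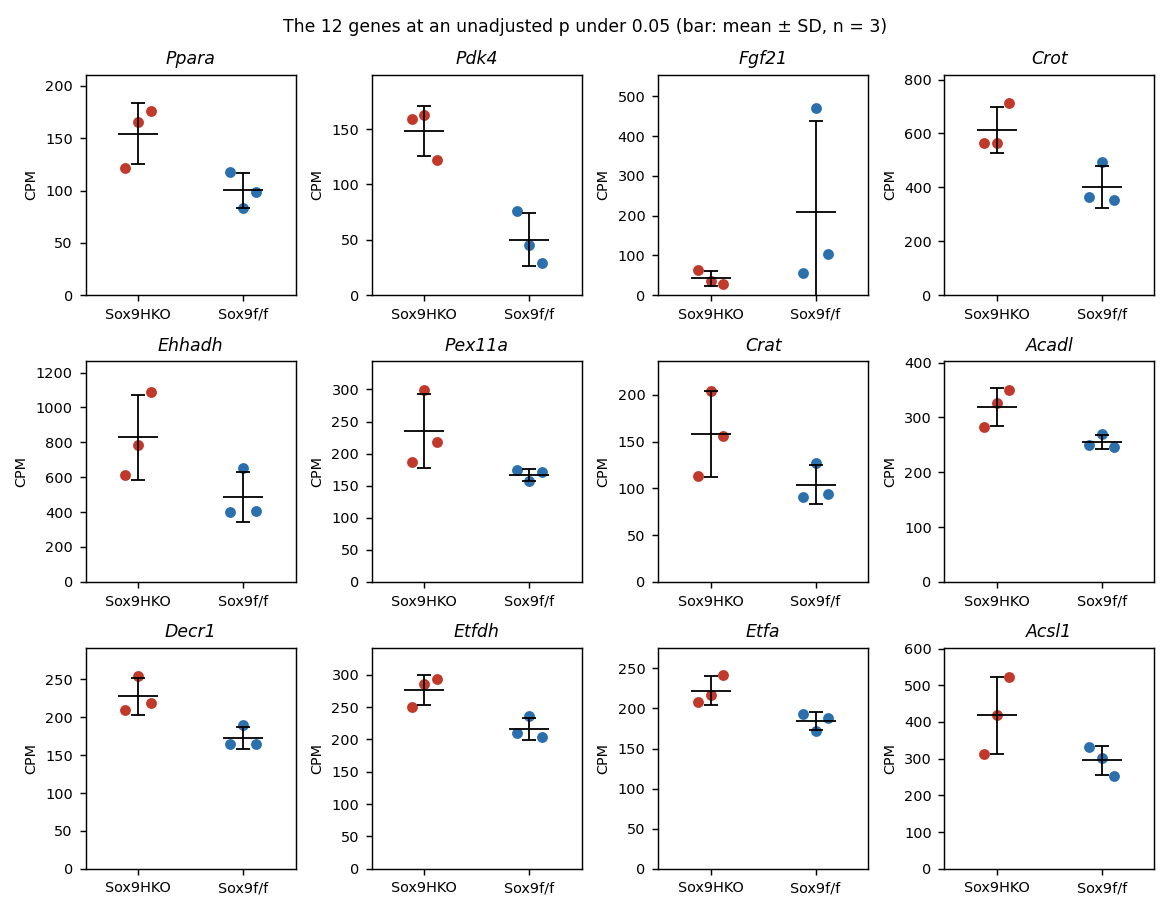
CPM of the 12 genes at an unadjusted p under 0.05, with each library as a point (red for Sox9HKO, left, and blue for Sox9f/f, right), a bar for the mean ± SD (n = 3), and axes from 0, where the lower bar of Fgf21 is cut off. The groups do not overlap for Ppara, Pdk4, Crot, Pex11a, Acadl, Decr1, Etfdh and Etfa, and they overlap for Fgf21, Ehhadh, Crat and Acsl1.

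For omega-oxidation the median log2 fold change was 0.04, with 0 of 3 under an unadjusted p of 0.05, beside 19.8% of all genes. Cyp4a14 was the most abundant of all 39 genes per length, at means of 1233 FPKM in the libraries labelled Sox9HKO and 1114 FPKM in those labelled Sox9f/f. It stood at 3217, 3201 and 3802 CPM in the libraries labelled Sox9HKO, against 2834, 4545 and 2594 CPM in those labelled Sox9f/f, with Sox9f/f replicate 6 the highest of all (0.04 ± 0.22). Cyp4a10 stood at 472, 426 and 257 CPM in the libraries labelled Sox9HKO, against 411, 799 and 373 CPM in those labelled Sox9f/f, again with Sox9f/f replicate 6 the highest (-0.45 ± 0.33, and -0.01 without that library). Cyp4a12a, a male-biased member in mouse liver, stood at 6.75, 18.9 and 3.77 CPM in the libraries labelled Sox9HKO, against 9.04, 8.77 and 5.76 CPM in those labelled Sox9f/f. The highest and the lowest of the 6 libraries both carried the label Sox9HKO, and the log2 fold change of 0.32 ± 0.52 became -0.58 without Sox9HKO replicate 10. The female transcript Xist had 1 to 3 counts and the Y-linked gene Ddx3y 439 to 811 counts in every library. Cyp4a genes are close copies, and Cyp4a12b, the twin of Cyp4a12a, stood at 10.1, 20.5 and 2.98 CPM in the libraries labelled Sox9HKO, against 8.53, 8.77 and 7.18 CPM in those labelled Sox9f/f.

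Bdh1, which turns acetoacetate into the ketone body hydroxybutyrate, stood at 504, 563 and 607 CPM in the libraries labelled Sox9HKO, against 474, 463 and 462 CPM in those labelled Sox9f/f. Its groups were apart, and the 3 libraries labelled Sox9f/f lay close together. The log2 fold change was 0.26 ± 0.12, with an edgeR adjusted p of 0.264.

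**Figure D3:**
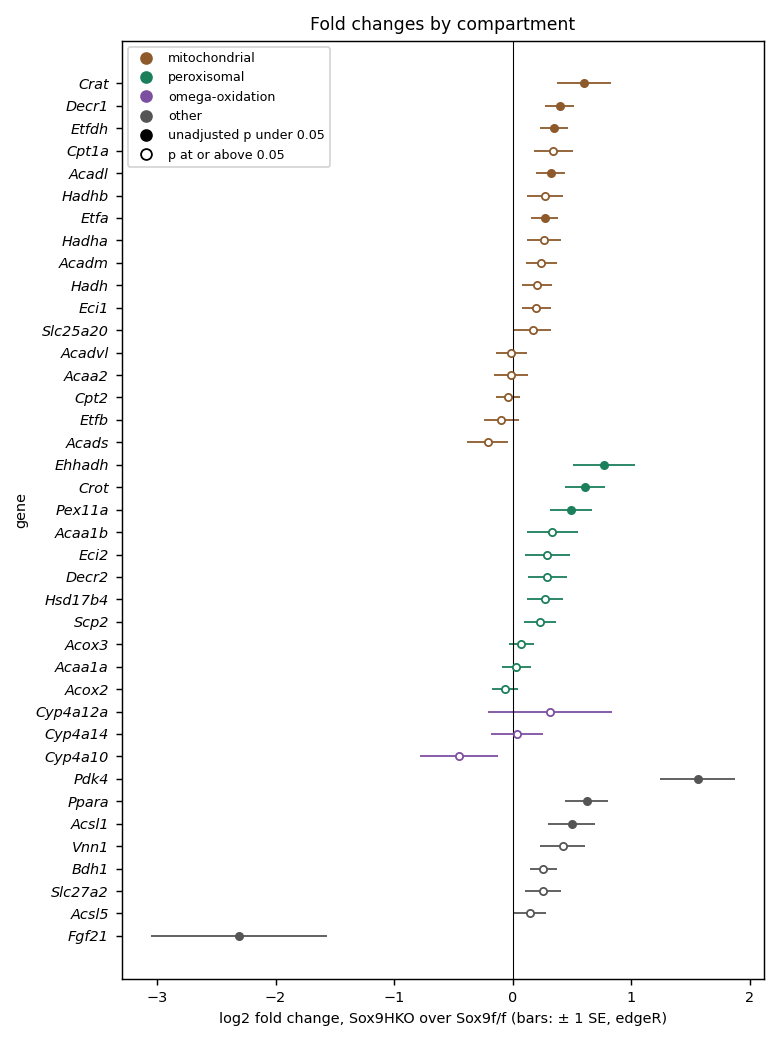
Log2 fold change (Sox9HKO over Sox9f/f) of each of the 39 genes with ± 1 SE from edgeR, ordered within each compartment, with filled points at an unadjusted p under 0.05. Of the 17 mitochondrial genes 12 lie right of 0, as do 10 of the 11 peroxisomal and 2 of the 3 omega-oxidation genes, and Fgf21 lies farthest left at -2.31.

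Set side by side within each library, the compartments as placed here (17 mitochondrial and 11 peroxisomal genes) differed by label. The contrast leaves out 8 members placed in no compartment, among them Pdk4 (1.56), a mitochondrial kinase, and Bdh1 (0.26). With these added to the mitochondrial genes the contrast was not run, so it holds for this placement only. The mean log2 CPM of the peroxisomal genes exceeded that of the mitochondrial genes by 0.39, 0.38 and 0.33 in the libraries labelled Sox9HKO, against 0.27, 0.28 and 0.23 in those labelled Sox9f/f. The groups were apart, with means of 0.37 ± 0.03 in the libraries labelled Sox9HKO and 0.26 ± 0.02 in those labelled Sox9f/f (SD, n = 3 each), and the difference of 0.11 was larger than either SD. The scaling of a library nearly cancels in a contrast within it, and with library-size scaling the difference in mean log2 fold change was also 0.11. Each compartment taken singly overlapped between labels. The mitochondrial mean log2 CPM was 7.86, 8.15 and 8.15 in the libraries labelled Sox9HKO, against 7.84, 7.99 and 7.77 in those labelled Sox9f/f. The peroxisomal mean was 8.26, 8.54 and 8.48 in the libraries labelled Sox9HKO, against 8.11, 8.27 and 8.01 in those labelled Sox9f/f. The omega-oxidation mean overlapped widely, at 7.77, 8.21 and 7.28 in the libraries labelled Sox9HKO, against 7.78, 8.31 and 7.48 in those labelled Sox9f/f.

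When each of the 28 genes was left out in turn, the difference between labels in the peroxisomal minus mitochondrial mean ranged from 0.06 (without Ehhadh) to 0.15 (without Acox2), and the groups stayed apart in 26 cases. The exceptions were the cases without Ehhadh (0.06) and without Crot (0.08). Without both, a choice made after the data were seen, the difference was 0.02 and the groups overlapped. By medians the compartments differed less, 0.29 for peroxisomal and 0.24 for mitochondrial genes, and this difference of 0.05 became -0.01 without Sox9HKO replicate 10 and 0.02 without Sox9f/f replicate 8, and 0.13 without Sox9HKO replicate 12. Genes of a compartment are not replicates, so no test of this contrast is given.

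**Figure D4:**
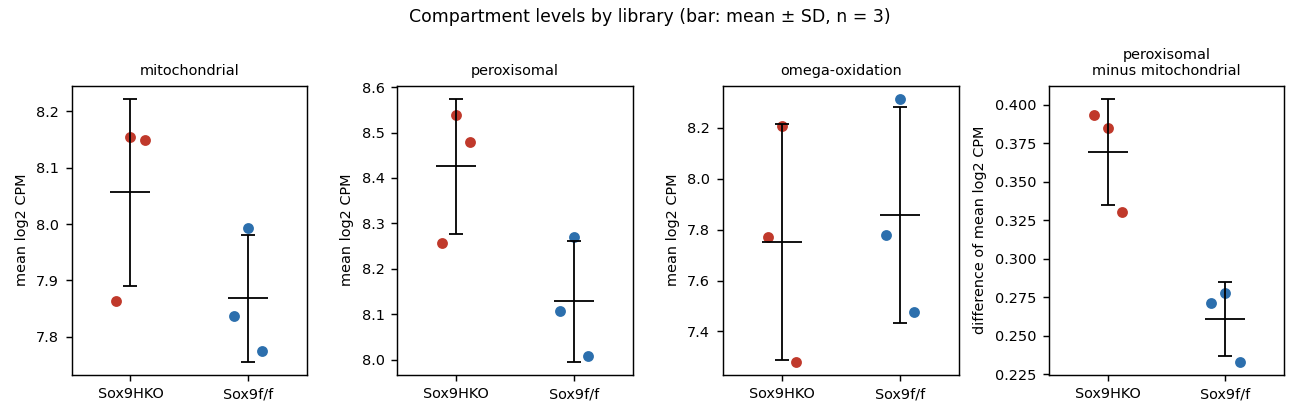
Mean log2 CPM of the mitochondrial (17), peroxisomal (11) and omega-oxidation (3) genes in each library, and the peroxisomal minus the mitochondrial mean, with Sox9HKO in red at left, Sox9f/f in blue at right and bars for the mean ± SD (n = 3). The y axes do not start at 0, and the groups are apart in the panel of differences, at 0.33 to 0.39 in Sox9HKO and 0.23 to 0.28 in Sox9f/f.

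Of 38 other genes listed for fatty acid oxidation and ketone metabolism 36 were tested, 17 were positive and 19 negative, and the median was -0.01. EdgeR called 0. With an unadjusted p under 0.05 there were 9 higher (25%, beside 9.74% of all genes) and 3 lower (8.33%, beside 10.1%). DESeq2 called 3 higher (8.33%, beside 2.31%) and 0 lower. Abcd2, a peroxisomal importer of very long chains, had 0.61 ± 0.12 and Oxct1, which reclaims ketone bodies outside the liver cell, 0.77 ± 0.22. Aldh3a2, the aldehyde dehydrogenase that follows omega-oxidation, had 0.51 ± 0.15, and Mlycd, which removes the Cpt1a inhibitor malonyl-CoA, -0.38 ± 0.10. The 15 peroxins, which build peroxisomes, had a median of -0.21, with 13 negative and 2 positive. Pex11a, itself a peroxin and positive, is counted among the 39 genes and not in this list. EdgeR and DESeq2 called 0 of these peroxins. An unadjusted p under 0.05 was reached by 4, all lower (26.7%, beside 10.1% of all genes), namely Pex6 at -0.41 ± 0.13, Pex11g at -0.36 ± 0.11, Pex2 at -0.37 ± 0.12 and Pex10 at -0.50 ± 0.17.

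Of 17 further PPAR-alpha targets 15 were tested, with a median log2 fold change of 0.43, 11 positive and 4 negative. EdgeR called 0 and DESeq2 4, all higher (26.7%, beside 2.31% of all genes). With an unadjusted p under 0.05 there were 5, also higher (33.3%, beside 9.74%). The thioesterases Acot1 and Acot3, close copies of each other, had 1.41 ± 0.31 and 1.22 ± 0.32. The lipid droplet proteins Cidec and Plin2 had 0.73 ± 0.19 and 0.43 ± 0.13.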

How the data were processed

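Liver RNA was measured in 6 libraries, 3 labelled Sox9HKO and 3 labelled Sox9f/f, grouped by the genotype in the labels. The deposited table gives raw counts per gene per the file headers, as whole numbers for 34745 genes. Per the file headers, its other columns hold the authors' FPKM. The gene length implied by count, FPKM and library total was constant over libraries to within 0.0109% for the 13046 genes with at least 10 counts in every library. Per the submitters' processing notes the tools include StringTie 1.3.0 and HISAT2 2.0.4, and the builds GRCm38.p4 and mm10, with no role stated. The counting tool, the annotation and strandedness are not stated in these sources, and 15 of the 39 genes overlap another gene, so shared reads are possible.

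The edgeR 4.0.16 test, run in R 4.3.3, was applied to the counts (filterByExpr, TMM, robust quasi-likelihood test, no covariates), with Benjamini-Hochberg adjustment over the 14137 genes kept, which held at least 99.9% of counts. Each SE is the log2 fold change divided by the root of its F statistic. Mean log2 CPM used a prior count of 2. P-values measure only the spread between these samples, which may be technical. Chi-square per degree of freedom over genes was at least 35.1 for every pair of libraries, where sampling noise alone gives about 1. Sox9HKO replicate 12 gave 92 and 93 against the libraries of its own label and 88.7 to 110 against those labelled Sox9f/f. Pairs without that library gave 35.1 to 81.7, with 37.2 between Sox9HKO replicates 9 and 10. Alternatives were DESeq2 1.42.0, limma 3.58.1 (voom with sample weights, or log2(FPKM + 0.5)), RLE and library-size scaling, no filter, a filter of 1 CPM in 3 libraries, removal of each library's trend on gene length (spline, 4 degrees of freedom), and each library left out. DESeq2 gave no adjusted p for 558 genes, left as missing. The script was tested on simulated counts.

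The members and lists were chosen with earlier results of these data known. Values in every library are given for Ppara, members at an unadjusted p under 0.05, the most abundant member per role and the Acaa1 pair. Those of Vnn1, Etfb, Cyp4a10, Cyp4a12a and its copy Cyp4a12b were added after their values were seen, as was Rxra. From other lists up to 4 genes of smallest p are named, by fold change. Eci2 and Scp2 were placed with peroxisomes and Crat with mitochondria, although each occurs elsewhere too. Ppara, Acsl1, Acsl5, Slc27a2, Bdh1, Pdk4, Fgf21 and Vnn1 were placed in no compartment.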

Additional observations from a re-analysis of the deposited data

How the results depend on the processing

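No member was called by edgeR or limma under any of the settings run, and DESeq2 called 3. The log2 fold change kept its sign for 29 of the 39 members under all settings. Genes called over the whole table numbered 0, with 605 by DESeq2, 10 without a filter, and 0 to 3 with each library left out. Members at an unadjusted p under 0.05 numbered 12, with 24 under library-size scaling, 23 with limma on log2(FPKM + 0.5), and 5 to 20 with each library left out. The share of all genes at that threshold in those fits is not given. Library-size scaling moved the median of all genes to 0.11 and that of the members to 0.37. It leaves out the TMM factors, which were 1.025 to 1.065 in the libraries labelled Sox9HKO and 0.953 to 0.976 in those labelled Sox9f/f. With limma on log2(FPKM + 0.5) the median of all genes was 0.07. The cause of the changes in the counts of genes and members was not tested, except that leaving out a library lowers the number of samples.

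The median of the omega-oxidation genes ranged from -0.53 to 0.34 with each library left out, and the peroxisomal minus mitochondrial median from -0.0129 to 0.13. The corresponding difference of mean log2 fold changes was 0.11, and 0.0978 to 0.13 with each library left out. It was 0.15 without the members known in both organelles (Eci2, Crat and Scp2), 0.0640 without Ehhadh, 0.0800 without Crot and 0.0247 without both, where the last 3 were chosen after seeing the data.

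Signs turned for 10 members, none of them called. Under library-size scaling Cpt2 was at 0.0715, Acadvl at 0.10, Acaa2 at 0.0932, Etfb at 0.0106 and Acox2 at 0.0424. With limma on log2(FPKM + 0.5) Cpt2 was at 0.0696, Acadvl at 0.0935, Acaa2 at 0.0880 and Acox2 at 0.0402. With the length trend removed Acaa2 was at 0.0534, Acox3 at -0.0822 and Acaa1a at -0.0415. With each library left out Cpt2 ranged from -0.0836 to 0.00530, Acadvl from -0.10 to 0.0732, Acads from -0.35 to 0.0133, Acaa2 from -0.0773 to 0.10, Etfb from -0.23 to 0.0274, Acaa1a from -0.0637 to 0.11, Cyp4a12a from -0.58 to 0.70 and Cyp4a14 from -0.12 to 0.34. No paired analysis was possible because the groups share no replicate numbers.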
